A study of Mus musculus with 9 samples.

Results

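Very long genes, whose transcription units cover 500 kb or more of the mouse genome, were followed in cortex after an experimental stroke and an enhancer RNA knockdown. The span of a gene was the distance from its smallest transcript start to its largest transcript end in the deposited tables. Of 52550 gene IDs, 236 spanned at least 500 kb. From these, 19 were left out because their symbols start with Gri, Grm, Gabr, Kcn, Cacn, Scn, Pcdh, Dlgap or Shank (mostly receptor, channel and protocadherin families), which left 217 genes. The expression filter, a TPM of at least 1 in 3 or more of the 9 libraries, was passed by 187 of the 217. TPM gives a transcript's part of its library after division by transcript length. The other 30 had a mean TPM of at most 0.815, and 6 of them were listed at 0 in every library. Of the 187, 2 passed through sham libraries alone, so those 2 had to be lower in the other groups.

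The mice were male C57BL/6N, 9 to 12 weeks old, with 3 libraries in each of 3 groups. Sham mice had neck surgery without a filament, the labels name no oligonucleotide for them, and their data had been generated before by the laboratory. The other groups received a locked nucleic acid antisense oligonucleotide through the lateral ventricles, either a negative control sequence (control oligo) or one against the enhancer RNA eRNA_06347 (knockdown), then 1 h of middle cerebral artery occlusion (MCAO, a filament model of ischemic stroke) and 6 h of reperfusion. Infarcted cortex of the operated side was sampled. The level of eRNA_06347 itself is not analysed here, so the knockdown label was not checked against its target.

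An RNA polymerase travels the whole transcription unit before a messenger RNA is complete, so a gene of a megabase takes hours to transcribe once, although almost all of that sequence is intron and is spliced out. In brain, genes of this size are largely neuronal and code for synaptic adhesion proteins, axon guidance receptors, scaffolds and the dystrophin complex. Several of them cover common fragile sites, where chromosomes tend to break under replication stress.

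The 217 genes lay on 20 chromosomes, their median span was 721 kb, and 210 were annotated as protein coding in GENCODE M21 (GRCm38). Among the 187 genes kept, the most abundant transcript had a median mature length of 4.88 kb and 16 exons, against 2.47 kb and 6 exons over all 17080 genes kept. Mature sequence made up a median of 1.03% of the span of that transcript. The most abundant transcript itself spanned 500 kb or more in 125 of the 187 genes, less than 500 kb in 62 and less than 100 kb in 20. For 8 genes, among them Snhg14, Tenm3, Ntrk3 and Chd1, no single transcript reached 500 kb. The largest span belonged to Gm20388 (chromosome 8, 119910841 to 124345722), which was listed at 0 in all libraries. Fgfr2 followed with 2961 kb, although its most abundant transcript spanned only 104 kb, and then came Ptprd (2271 kb), Dmd (2257 kb) and Cntnap2 (2245 kb).

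Some of these genes hold several start sites, and the start fixes how much of the span a transcript crosses. The stretches of 150 bases just upstream of 4 RefSeq starts (GRCm38.p6, written 5′ to 3′ on the strand of the gene, CG dinucleotides in capitals) are given because the results describe transcripts that begin at or near them. The first pair are 2 chosen starts of Dmd, which codes for dystrophin: an upstream start at chrX:82948720-82948869 (+ strand) of the 2257 kb transcript, and an internal start at chrX:85048145-85048294 (+ strand) of a 157 kb transcript. The others are the start of the 518 kb transcript of Elmo1 at chr13:20090357-20090506 (+ strand) and that of the 72 kb transcript of Fgf13 at chrX:59134437-59134586 (- strand). The transcripts begin 33 (upstream Dmd), 118 (internal Dmd), 112 (Elmo1) and 0 bases (Fgf13) downstream of these RefSeq starts.
Dmd, 2257 kb transcript: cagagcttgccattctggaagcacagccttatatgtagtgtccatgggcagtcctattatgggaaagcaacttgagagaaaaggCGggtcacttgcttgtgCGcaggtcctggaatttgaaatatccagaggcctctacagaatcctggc
Dmd, 157 kb transcript: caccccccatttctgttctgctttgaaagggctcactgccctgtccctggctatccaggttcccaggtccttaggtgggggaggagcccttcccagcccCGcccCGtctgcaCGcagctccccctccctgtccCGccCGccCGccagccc
Elmo1, 518 kb transcript: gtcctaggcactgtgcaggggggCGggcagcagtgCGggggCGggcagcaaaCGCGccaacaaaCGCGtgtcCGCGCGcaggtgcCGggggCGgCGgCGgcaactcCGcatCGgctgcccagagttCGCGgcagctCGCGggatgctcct
Fgf13, 72 kb transcript: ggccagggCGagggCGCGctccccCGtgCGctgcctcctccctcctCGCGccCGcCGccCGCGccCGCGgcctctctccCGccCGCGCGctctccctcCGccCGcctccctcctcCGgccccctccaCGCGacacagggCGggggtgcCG
The upstream Dmd start shown held 2 CG dinucleotides and the internal start shown 6, against 20 for Elmo1 and 24 for Fgf13. Over 32851 RefSeq start windows of the same length the median was 4, and 2.60% held at least 24. The letters TATAAA, searched on both strands, were in none of the 4 windows and in 7.57% of all windows. Of the 187 genes, 143 had a start in the RefSeq table, and the median over their 231 windows was 6 CG dinucleotides.

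The transcripts of the files held 2.70 to 2.87 gigabases of aligned sequence in the sham libraries and 4.40 to 4.92 in the other 6. The number of aligned bases found most often in lightly covered single-exon transcripts, taken here as the size of 1 read or read pair, was 51 in every sham library and 282 in every other library. Nuclear protein coding genes took 30.6 to 34.2% of all TPM in sham, 54.7 to 60.9% in control oligo and 57.0 to 63.9% in knockdown libraries. Stroke, oligonucleotide, data set, library preparation and read length cannot be told apart in the comparisons with sham. The median gene was 0.56 higher in control oligo than in sham libraries on the log2(TPM + 1) scale used for all changes here. After median-ratio scaling, which divides each library by its median ratio to an average library, that median was 0.01. Counts over all long genes are therefore given both ways, and the changes of single genes are as deposited unless scaling is named.

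After MCAO with the control oligo, about as many very long genes as not stood at lower levels than in sham cortex, among them genes for neurexins, neuroligins, teneurins, axon guidance receptors and scaffolds. Of the 187 genes kept, 98 were lower, 17 were higher and 72 did not pass (limma, adjusted p under 0.05 over all genes kept). Over all genes tested, 12.8% were lower and 52.6% were higher. The median change of the long genes was -0.54, which lies 1.10 below that of the median gene, and 92.5% of them fell below that gene. After scaling, 154 were lower and 4 higher, against 29.2% and 26.1% of all genes. Sham and control oligo libraries did not overlap for 103 genes that were lower and 19 that were higher, against 14.2% and 56.2% of all genes. Without sham replicate 3 the number of higher genes was 11. In bulk tissue, fewer cells of a type and less RNA per cell cannot be told apart. At a mean TPM of at least 5, a filter on the level over all libraries, 77 of 147 long genes were lower and 15 higher, against 9.63% and 60.6% of all genes at that level.

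The protein coding long genes together made up 1.88 to 1.97% of the nuclear protein coding TPM in the 3 sham libraries, 0.729 to 0.880% in the 3 control oligo libraries and 0.703 to 0.832% in the 3 knockdown libraries. Sham libraries lay apart from both other groups, which overlapped each other.

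Among protein coding genes, a set chosen after seeing the data, the shift was graded with span rather than starting at 500 kb. Their median change between control oligo and sham was 0.94 for spans under 10 kb, 0.70 for 10 to 50 kb, 0.36 for 50 to 100 kb and 0.20 for 100 to 200 kb. It was -0.07 for 200 to 500 kb, -0.50 for 500 kb to 1 Mb and -0.67 from 1 Mb. Each wider class had a lower median than the class before it. Over all genes kept, noncoding ones included, the median was 0.66 under 10 kb and 0.68 for 10 to 50 kb. Beyond that it fell from class to class. Of the 19 left-out channel, receptor and protocadherin genes, 9 were lower and none higher, with a median of -0.55, next to -0.54 for the genes described here and against 12.8% lower over all genes. After scaling 18 of the 19 were lower, with a median of -1.12, against 29.2% of all genes. The genes at the edge of the rule did not form a step. Just inside it, Edil3 (502 kb, an integrin ligand) was lower by -0.80, while Dock1 (503 kb, a guanine nucleotide exchange factor) had -0.16 and did not pass, and Car10 (504 kb) was higher by 0.65. Just outside it, Pde1c (499 kb) had -0.23 and Dnm3 (496 kb) -0.01, neither of which passed, and Cacna1e (494 kb) was lower by -1.11. After scaling all of these but Car10 (-0.01) were lower, with Edil3 at -1.46, Dock1 at -0.75, Pde1c at -0.61, Dnm3 at -0.65 and Cacna1e at -1.76.

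**Figure D1:**
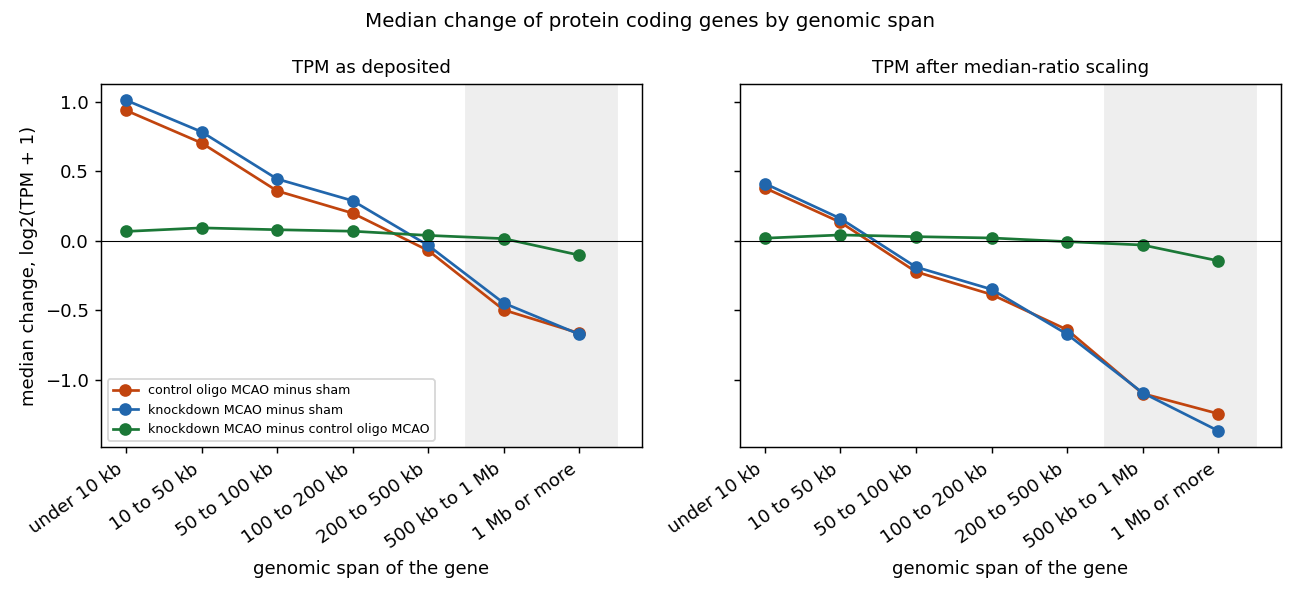
Median change in log2(TPM + 1) of protein coding genes (vertical axis) in 7 classes of genomic span (horizontal axis) for 3 comparisons, with TPM as deposited on the left and after median-ratio scaling on the right. The shaded classes span 500 kb or more. On the left both comparisons with sham descend from 0.94 and 1.01 in the shortest class to -0.67 in the longest, while knockdown minus control oligo stays between -0.10 and 0.09. On the right control oligo minus sham descends from 0.38 to -1.25, and knockdown minus control oligo stays between -0.14 and 0.04.

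With span as a covariate the answer depended on which genes set the line. Over all 17080 genes a straight line of change on log10 span rose by 0.07 per 10-fold span, with an exact two-sided permutation p over libraries of 0.3, where 0.1 is the smallest that 3 against 3 libraries allow. Correcting for that line also took out the mean shift of each library, and left 154 long genes lower and 4 higher, against 26% and 31% of all genes. The median change over all genes was then 0.095, against 0.56 as deposited. Median-ratio scaling, without span, gave the same 154 and 4, so this rise in lower genes cannot be credited to span. Over the 13847 protein coding genes, a choice made after seeing the data, the slope was -0.53 per 10-fold span (exact permutation p = 0.1). Corrected in the same way for the coding line, 80 of 184 long coding genes were lower and 20 higher, against 24.4% and 24.2% of all coding genes. Their median lay 0.35 below that of all coding genes instead of 1.16. Mature length was also greater in the long genes. Among genes with a mature length of 4 to 8 kb, the median change was 0.40 for spans under 50 kb, 0.18 for 50 to 200 kb, -0.15 for 200 to 500 kb and -0.42 for the 81 long genes. Within the 187 long genes the Spearman correlation of the change with span was -0.17 and with mature length -0.28, a description over genes that share their libraries.

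The gene lists below stand beside 52.4% of long genes and 12.8% of all genes lower as deposited, and 82.4% and 29.2% after scaling. Neurexins, neuroligins and contactin-type proteins, which bridge the synaptic cleft or hold the axon to glia, were lower in 9 of 9 genes, with a median of -1.51. After scaling 9 of 9 were lower too. Nlgn1 (ENSMUSG00000063887, chromosome 3, 25426215 to 26332460), the postsynaptic neuroligin 1, showed the most negative change of the 187. Its TPM was 49.0, 54.8 and 42.7 in sham, 10.2, 7.35 and 5.55 in control oligo and 15.4, 13.5 and 8.87 in knockdown libraries. All 6 MCAO libraries lay far below the sham range, and the change from sham to control oligo was -2.55 ± 0.21 (SE, adjusted p = 3.11e-05). Cntn5, a contactin, was lower by -1.62 and Cntnap5b, of the contactin-associated family, by -1.98.

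Genes listed with teneurins, latrophilins and leucine-rich repeat proteins, further adhesion molecules of the synapse, were lower in 10 of 11 (median -1.15). After scaling 11 of 11 were lower. In the 3 sham libraries Il1rapl1, a synaptic organizer linked to intellectual disability, stood at 18.1, 17.4 and 10.6 TPM, and in the 3 control oligo libraries at 3.30, 3.10 and 2.78. The groups did not overlap, and the change was -1.98 ± 0.22 (adjusted p = 0.000127). Tenm1 was lower by -1.97, Tenm3 by -1.65 and the latrophilin Adgrl3 by -1.33. Immunoglobulin adhesion proteins were less uniform: 4 of 9 were lower, among them Cadm2 (-1.40), Opcml (-0.89) and Mdga2 (-0.79), and after scaling 8 of 9. Ntm, one of the 5 most abundant long genes, had 112 ± 7.69 TPM (SD, n = 3) in sham and 120 ± 3.75 in control oligo, and did not pass as deposited. After scaling it was lower by -0.57.

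Genes listed under axon guidance receptors and ligands, some with other roles, were lower in 6 of 8, with a median of -1.28, and in 7 of 8 after scaling. They included the ephrin receptor Epha6 (-1.94), the netrin receptor Dcc (-1.57) and the microtubule-binding navigator Nav3 (-1.52). Transcripts of 500 kb or more held 9.03% ± 0.514 (SD, n = 3) of the Nav3 TPM in sham. Among 5 cadherin and catenin genes 1 was lower and 2 were higher as deposited, and 3 were lower and 0 higher after scaling. The giant cadherin Fat3 was lower by -2.09, the catenin Ctnnd2 was higher by 0.47 and Cdh13, a cadherin anchored by a lipid, higher by 0.56, and neither of the latter was higher after scaling.

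Genes listed as synaptic scaffolds and release factors, some with wider roles, were lower in 11 of 15 (median -0.85). After scaling 14 of 15 were lower. Syne1, a spectrin-repeat protein of the nuclear envelope whose most abundant transcript spanned 32 kb, stood at 134, 122 and 117 TPM in sham and 32.5, 38.0 and 25.5 in control oligo libraries, a change of -1.94. Lrba, a vesicle trafficking protein, was lower by -1.88 and Csmd3 by -1.34. Syt1, the calcium sensor of transmitter release and the most abundant long gene, had 546, 608 and 514 TPM in sham against 521, 594 and 468 in control oligo libraries. These ranges overlapped and the change of -0.08 did not pass, whereas after scaling it was -0.75 with an adjusted p of 0.00083. Ank2, an ankyrin that anchors membrane proteins to the spectrin skeleton, fell from 342 ± 42.5 to 180 ± 25.8 TPM (-0.92), and Kalrn, a guanine nucleotide exchange factor of dendritic spines, from 199 ± 10.5 to 122 ± 22.9 (-0.72). Transcripts of 500 kb or more held only 5.78% ± 0.301 (SD, n = 3) of the Ank2 TPM and 2.98% ± 0.372 of the Kalrn TPM in sham.

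The dystrophin complex, which links the cytoskeleton to the extracellular matrix, was lower in 4 of 4 genes, as deposited and after scaling. Dmd fell from 25, 31.3 and 22.5 TPM in sham to 9.67, 12.2 and 6.05 in control oligo libraries without overlap (-1.44 ± 0.25, adjusted p = 0.00107). Sntg1, a syntrophin, was lower by -1.19 and Sgcz, a sarcoglycan, by -1.15.

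Receptor kinases, receptor phosphatases and their ligands split, with 4 of 13 lower and 2 higher as deposited and 11 lower and 1 higher after scaling. Erbb4, the neuregulin receptor, held 23.3, 21.4 and 19.9 TPM in sham and 6.91, 1.86 and 6.34 in control oligo libraries (-2.03 ± 0.36, adjusted p = 0.00124). Ptprd, a receptor phosphatase of the presynapse, fell from 105 ± 11.8 to 45.6 ± 12.0 (-1.21). Fgf13, an intracellular fibroblast growth factor homologue that binds sodium channels, was the member of this list that stayed higher after scaling.

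Intracellular enzymes and fragile site genes were lower in 6 of 15 and higher in 2, and after scaling 12 were lower and 1 higher. Lrp1b, a giant lipoprotein receptor in a fragile site, went from 28.5, 28.7 and 27.2 TPM in sham to 4.77, 5.76 and 4.28 in control oligo libraries. Its 3 sham values differ by little and lie well above all MCAO values, and the change was -2.30 ± 0.16 (adjusted p = 1.16e-05). Hs6st3, a heparan sulfate sulfotransferase, was lower by -2.11 and Vps13b, a lipid transfer protein, by -1.59. Enzymes listed under cyclic nucleotides and kinases were lower in 5 of 9 and higher in 1 (7 and 0 after scaling). Pde4d changed by -1.11, Dgkb by -1.13 and Plcb1, a phospholipase, by -1.01. Transcription and chromatin regulators were lower in 6 of 12 and higher in 1 (10 and 0 after scaling). Zbtb20 changed by -1.37, Foxp2 by -1.24 and Hdac9 by -0.93, although transcripts of 500 kb or more held 3.60% ± 4.75 (SD, n = 3) of the Hdac9 TPM in sham. Of 3 RNA-binding proteins, Rbms3 was lower (-0.72), while the splicing regulators Rbfox1 (-0.20) and Celf2 (-0.11) did not pass as deposited. After scaling all 3 were lower, Rbfox1 by -0.86 and Celf2 by -0.76. Snhg14, the noncoding host transcript of the Prader-Willi and Angelman region, had 241, 181 and 158 TPM in sham and 42.4, 41.3 and 25.1 in control oligo libraries (-2.40). The 75 genes kept in no list held 31 lower and 9 higher genes, with a median of -0.29, and after scaling 55 lower and 2 higher, with a median of -0.85.

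**Figure D2:**
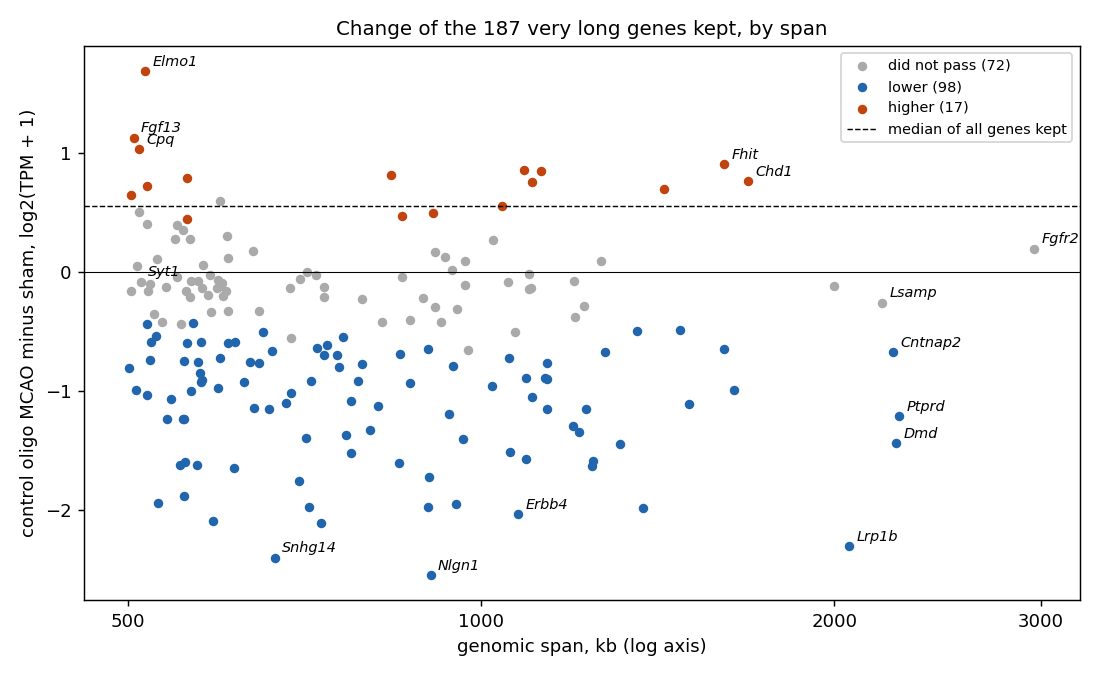
Change from sham to control oligo MCAO (vertical axis, log2(TPM + 1)) against genomic span (horizontal log axis, kb) for the 187 very long genes kept, each point 1 gene, coloured by the limma call. The 98 lower genes fill the whole range of spans, the 17 higher genes include Elmo1, Fgf13 and Cpq just above 500 kb and Fhit at 1612 kb and Chd1 at 1690 kb, and most points lie under the dashed median of all genes at 0.56.

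A minority of very long genes stood at higher levels after MCAO. The 10 most positive changes belonged to Elmo1, Fgf13, Cpq, Fhit, Asic2, Dab1, Sugct, Schip1, Chd1 and Auts2. Elmo1 (ENSMUSG00000041112, chromosome 13, 20090596 to 20608353), which activates Rac in engulfment and migration, had 17.8, 15.8 and 12.3 TPM in sham, 53.0, 52.9 and 47.9 in control oligo and 50.3, 47.2 and 49.3 in knockdown libraries. The 6 MCAO libraries lay close together and well above sham, with a change of 1.69 ± 0.16 (adjusted p = 6.25e-05) and of 1.05 after scaling. Fgf13 rose from 27.8 ± 4.04 to 61.7 ± 2.39 TPM (1.13), Cpq, a carboxypeptidase, from 6.10 ± 0.484 to 13.5 ± 0.501 (1.03) and Fhit, a fragile site hydrolase, from 2.59 ± 0.348 to 5.74 ± 0.706 (0.91). These 4 were the genes that were also higher after scaling. The other 6 ranged from 0.76 to 0.86 as deposited, close to the 0.56 of the median gene, and from 0.12 to 0.34 after scaling, where none of them passed. For Fgf13, Schip1 and Chd1 the most abundant transcript spanned 72, 54 and 21 kb, far less than the gene. By contrast it covered the whole gene in Elmo1 (518 kb), Cpq (511 kb) and Fhit (1612 kb).

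**Figure D3:**
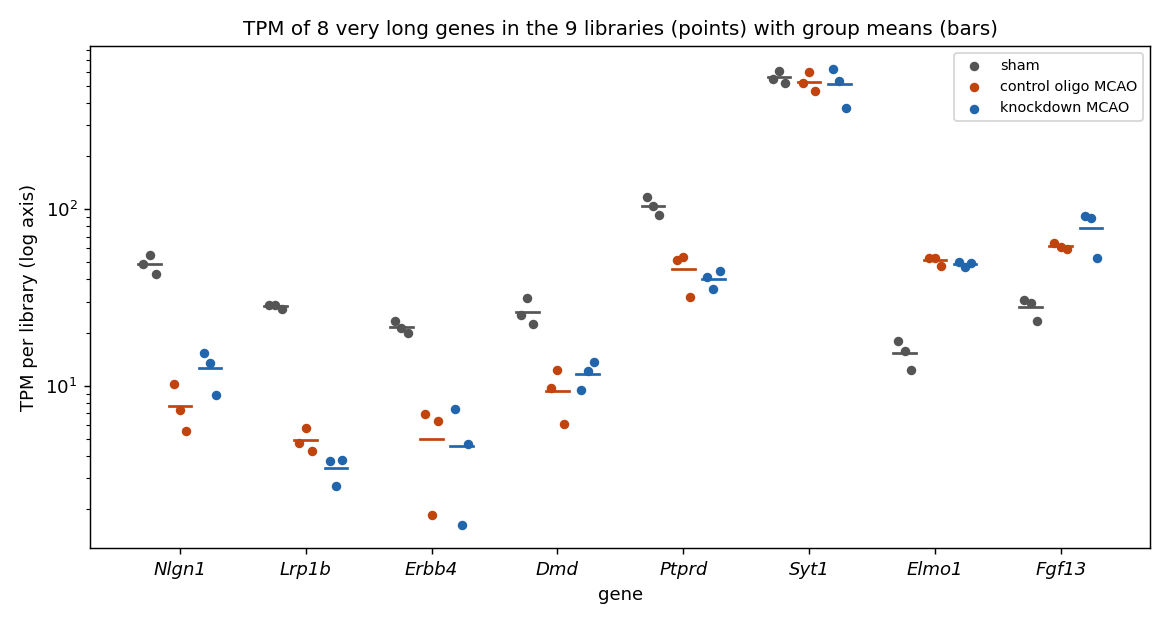
TPM (vertical log axis) of 8 very long genes in each of the 9 libraries, as points coloured by group, with bars at the group means. In Nlgn1, Lrp1b, Erbb4, Dmd and Ptprd both MCAO groups lie under the sham points, Syt1 overlaps in all groups, and Elmo1 and Fgf13 lie above sham.

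Markers of neurons and of other cell types are set here against the 52.6% of all genes that were higher as deposited and the 26.1% after scaling. The summed TPM of 5 excitatory neuron markers was 746 to 880 in sham and 2564 to 2767 in control oligo libraries, with 3 of the 5 higher and 1 lower, and after scaling 2 and 2. For 6 inhibitory neuron markers it was 417 to 436 and 822 to 1226, with 5 higher and 0 lower, and after scaling 2 and 0. Oligodendrocyte, microglial and endothelial markers (5 each) were higher in 4 of 5 for each type and lower in 0, 1 and 1. After scaling 1, 2 and 2 were higher, and 1 of each type was lower. Neutrophil markers (4 in the files, 1 of them at 0 in all sham libraries) summed to 1.53 to 5.17 TPM in sham, 26.9 to 307 in control oligo and 66.5 to 1301 in knockdown libraries. Striatal markers (5) summed to 57.7 to 72.7 TPM in sham and 181 to 193 in control oligo libraries. Of these, 2 were higher and 0 lower, and after scaling 2 and 1. Astrocyte markers (5) summed to 651 to 737 and 682 to 765, with 2 higher and 1 lower, and after scaling 1 and 2. Choroid plexus markers (4) summed to 1.01 to 1.22, 4.07 to 5.91 and 4.70 to 60.9. The part of cell composition in the changes of the long genes was not tested. Of 49 genes for topoisomerases, polymerase pausing and elongation factors and U1 components, proteins known to be needed for long transcription units, 32 were higher and 2 lower as deposited, and 14 higher and 11 lower after scaling. Those shares lie beside 52.6% and 12.8% of all genes as deposited, and 26.1% and 29.2% after scaling. Top2b, the neuronal topoisomerase, had 28.6 ± 1.99 TPM in sham and 21.2 ± 5.65 in control oligo libraries (-0.45, adjusted p = 0.071). After scaling it was lower by -1.09.

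Coverage along the mature transcript differed between sham and MCAO libraries, and a lower 5′ to 3′ balance was more frequent in the long genes than over all genes. The 5′ to 3′ balance was taken as the log2 ratio of the exon coverage on the 5′ side of the midpoint of the most abundant mature transcript to that on its 3′ side, in 147 long genes with at least 4 exons and 10142 genes in all. Its median over the long genes was -0.01 to 0.05 in sham, -0.98 to -0.62 in control oligo and -0.77 to -0.69 in knockdown libraries. Over all genes it was -0.07 to -0.04, -0.59 to -0.42 and -0.49 to -0.40. From sham to control oligo, 94 of 147 long genes (63.9%) had a lower balance and none a higher one, against 38.5% and 4.69% of all genes. The median change was -0.84 in the long genes. Genes of 200 to 500 kb lay close to that, with 57.7% lower and a median of -0.81, and so did the left-out families, with 64.7% lower and -0.81. A higher balance appeared in 1 long gene when control oligo replicate 1 was left out. At a mature length of 4 to 8 kb the share with a lower balance was 49.4% for spans of 10 to 50 kb, 65.5% for 100 to 200 kb, 65.6% for 200 to 500 kb and 73.1% for the 67 long genes. The median changes in these classes were -0.53, -0.98, -0.98 and -0.89, so that of the long genes was no lower than in the 2 classes of 100 to 500 kb.

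Csmd1, a giant complement-control protein of neurons, gave the smallest p. Its balance was 0.67, 0.60 and 0.57 in sham, -2.15, -2.12 and -2.30 in control oligo and -1.39, -1.16 and -1.56 in knockdown libraries. The 3 groups did not overlap, and the change from sham to control oligo was -2.80 ± 0.09 (SE). Tmem132d (-1.92), Astn2 (-1.50) and Adgrb3 (-2.25) followed. Genes that were higher in TPM had a lower balance too: that of Elmo1 changed by -0.79 and that of Fgf13 by -0.91. Over the 147 long genes the Spearman correlation between the change in balance and the change in TPM was 0.05, a description over genes of the same libraries. Measured from the 3′ side alone, the long genes still lay 0.91 below the median gene, with 123 of 147 under it, and from the 5′ side alone 1.52 below it. Both values were computed after the balance had been seen. The part of RNA quality and library preparation in these values was not tested.

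**Figure D4:**
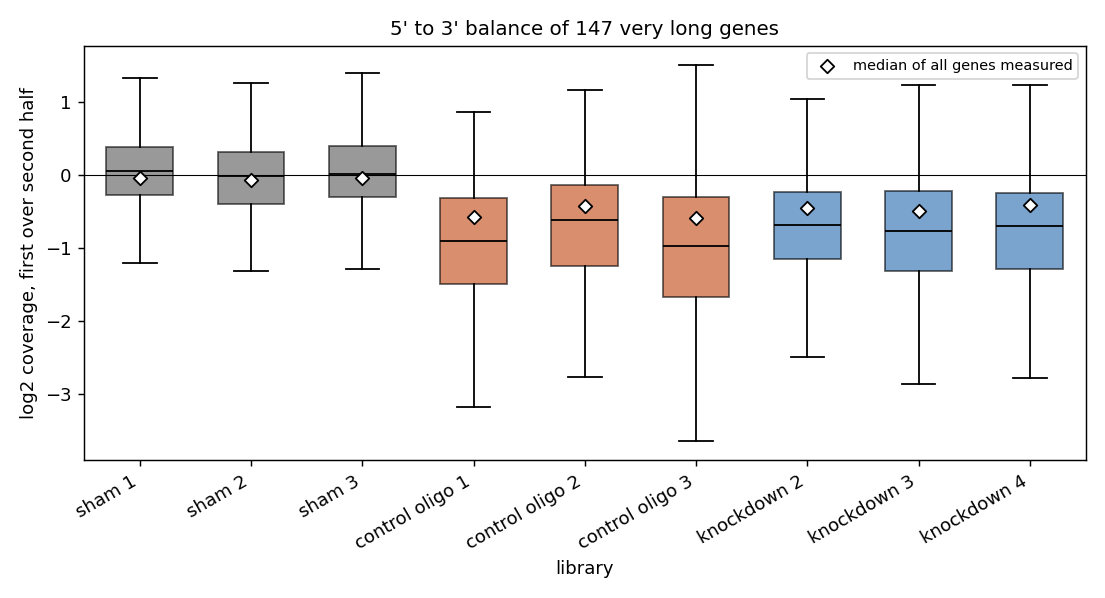
Balance of coverage between the 5′ and 3′ sides of the midpoint of the mature transcript (vertical axis, log2) for 147 very long genes in each of the 9 libraries (horizontal axis). Boxes span the quartiles of the genes with a line at the median, whiskers reach 1.5 times that range, and diamonds mark the median of all genes measured; sham medians lie near 0 and the 6 MCAO medians between -0.98 and -0.62.

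Transcripts of the same long gene did not always move together. Of 678 transcripts kept from 185 long genes, 205 were lower and 44 higher in control oligo than in sham libraries, against 7.61% and 27.7% of all transcripts tested. Leaving out sham replicate 1, 2 or 3 gave 26, 26 and 24 higher transcripts. The 5 transcripts with the smallest p were the 468 kb form of Fat3 (24.7 to 34.96 TPM in sham, listed at 0 in the other 6 libraries), a pair of 702 kb forms of Nlgn1, the 759 kb form of Adgrb3 and a 637 kb form of Anks1b, a scaffold of the postsynaptic density. The median change was -0.51 for the 284 transcripts that themselves span 500 kb or more, -0.48 for 230 of 100 to 500 kb and -0.21 for 164 under 100 kb, all below the 0.50 of the median transcript. In 15 genes at least 1 transcript was higher and at least 1 lower, and in 10 after scaling. The same count was not made over all genes, so it does not set the long genes apart. Among the 15, Ntm had the most higher transcripts, with 3 higher and 3 lower as deposited, and 1 higher and 5 lower after scaling. The share of TPM in transcripts of 500 kb or more had a median over 179 genes of 76.7 to 79.6% in sham and 77.2 to 81.4% in control oligo libraries, ranges that overlap.

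In Dmd the 2257 kb transcript was lower and the 157 kb transcript did not pass, and the difference between them was not tested. The 2257 kb transcript from the upstream start, whose sequence holds 2 CG dinucleotides, had 15.3, 13.7 and 12.4 TPM in sham and 1.56, 2.04 and 1.23 in control oligo libraries (-2.51 ± 0.21, adjusted p = 0.000708). The 157 kb transcript from the internal start had 0.281, 8.07 and 0.346 TPM in sham and 4.96, 7.12 and 1.10 in control oligo libraries. One sham library exceeded all control oligo libraries, the others lay below them, and the change of 0.90 ± 0.90 did not pass. Transcripts of 500 kb or more held 58.9% ± 8.16 (SD, n = 3) of the Dmd TPM in sham and 20.9% ± 4.81 in control oligo libraries.

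Pde4b, which degrades cyclic AMP, was higher as a gene as deposited (51.8 ± 7.63 to 88.3 ± 25.7 TPM, 0.73). It was not among the 4 long genes higher after scaling, where 1 Pde4b transcript was higher and 3 were lower. Its 352 kb transcript was at 13.1, 21.8 and 13.7 TPM in sham and 87.8, 64.5 and 47.1 in control oligo libraries (1.96). Its 184 kb transcript, with a start further downstream, went the other way, from 23.5, 15.3 and 15.6 to 2.14, 2.27 and 1.02 TPM (-2.78). Ntrk3, the receptor of neurotrophin 3, was divided by transcript as well. The 277 kb transcript of 14 exons rose from 9.08 ± 1.41 to 27.6 ± 2.30 TPM (1.51) and the 402 kb transcript of 17 exons fell from 13.6 ± 1.57 to 5.90 ± 1.05 (-1.09). Adgrb3, an adhesion receptor of the synapse, gave opposite values for a pair of near-equal transcripts. The 759 kb form was at most 0.0156 TPM in sham and 18.9 to 29.4 in control oligo libraries, and the 762 kb form was at 23.9 to 29.95 and 0.235 to 6.21. The division of reads among overlapping transcripts is an estimate of the quantification, and with different read lengths in sham it is uncertain. In Elmo1 the 518 kb transcript rose by 1.98, while the 120 kb transcript had 0.46 and did not pass.

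**Figure D5:**
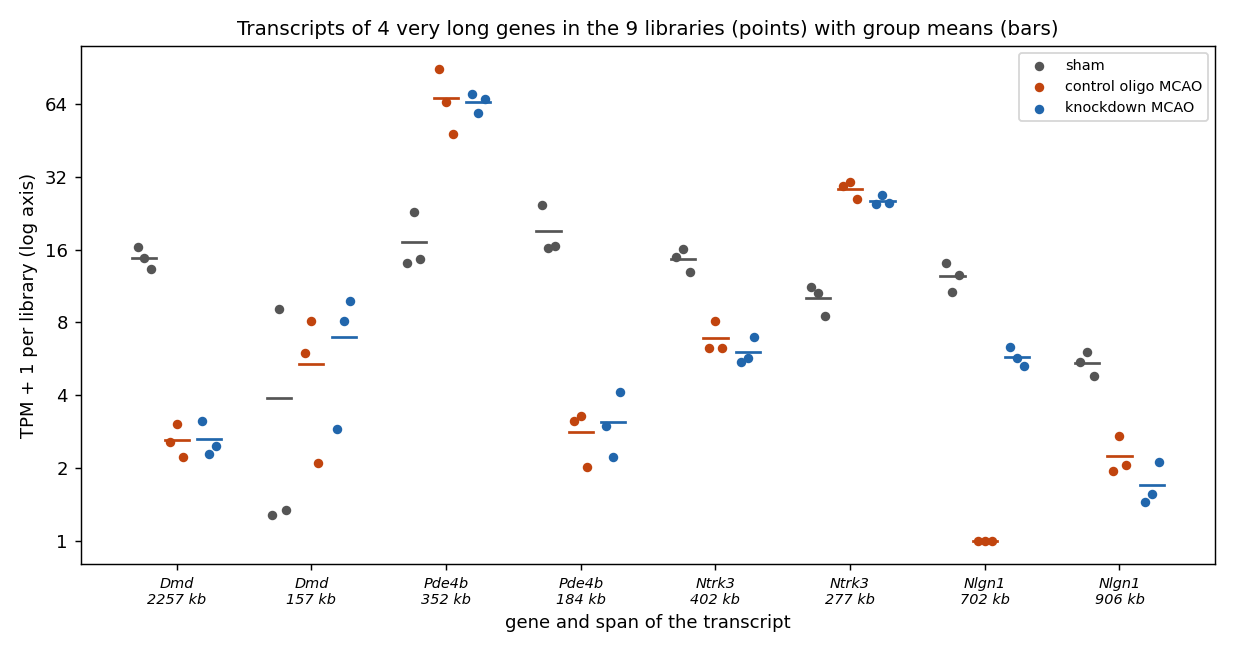
TPM + 1 (vertical log axis) of 8 transcripts from 4 very long genes in each of the 9 libraries, as points coloured by group with bars at the group means, labelled by gene and by the span of the transcript. The 2257 kb Dmd, 184 kb Pde4b and 402 kb Ntrk3 transcripts lie lower in MCAO than in sham libraries, the 352 kb Pde4b and 277 kb Ntrk3 transcripts higher, and the 702 kb Nlgn1 transcript is at 0 TPM in the control oligo libraries and at 4.26 to 5.30 in the knockdown libraries.

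Knockdown MCAO cortex was compared with the same sham libraries, so its values are not independent of those above. Of the 187 genes, 90 were lower and 19 higher, against 12.5% and 52.7% of all genes tested, and after scaling 148 and 4, against 27.1% and 22.7%. After correction for the span line over all genes, which also takes out the mean shift of each library, 154 were lower and 4 higher, against 24.3% and 26.6%. Libraries did not overlap for 97 lower and 22 higher long genes, against 14.2% and 57.8%. The median long gene changed by -0.49, which is 1.11 below the median gene. The 10 most negative changes were those of Lrp1b (-2.73), Snhg14 (-2.71), Fat3 (-2.49), Hs6st3 (-2.19), Erbb4 (-2.17), Il1rapl1 (-2.09), Tenm1 (-2.08), Cntnap5b (-1.92), Nlgn1 (-1.90) and Lrba (-1.88). The most positive included Elmo1 (1.63), Fgf13 (1.42), Cpq (1.20), Chd1 (1.07), Gpc5, a heparan sulfate proteoglycan (0.90), and Kirrel3, an adhesion protein (0.88). Chd1, Elmo1, Cpq and Fgf13 were the 4 genes also higher after scaling. The balance was lower in 89 of 147 long genes and higher in 1, Fars2, against 35.2% and 5.96% of all genes, and the smallest p belonged to Ryr2, Nbea, Ptprd, Dscam and Car10. Without knockdown replicate 3, 2 genes had a higher balance. Among transcripts, 205 were lower and 41 higher, against 7.50% and 26.5%. The smallest p belonged to the same Fat3, Anks1b and Adgrb3 transcripts, a 38 kb form of Snhg14 (-2.81) and a 336 kb form of Ryr2 (-2.54). Leaving out sham replicate 1, 2 or 3 gave 25, 26 and 19 higher transcripts, and without sham replicate 1 there were 133 lower ones.

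Between knockdown and control oligo, both after MCAO and under 1 labelled library protocol, no long gene passed the test in either direction. Of all 17080 genes, 0.00585% were higher and 0.00585% lower. After scaling or the span line, where 0.0117% and 0.00585% of all genes passed, there was again no long gene. At an unadjusted p under 0.05 there were 4 long genes (2.14%), against 1.88% of all genes. The median change of the long genes was 0.01, against 0.06 for the median gene, and -0.10 for the 51 genes of 1 Mb or more. Knockdown and control oligo libraries did not overlap for 6 genes that were higher and 4 that were lower, against 3.60% and 1.80% of all genes. A change that misses the threshold does not show that the groups are equal, and the middle standard error among the long genes was 0.24.

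The 5 positive changes with the smallest p, none of which passed, were those of Sox2ot, Lrrtm4, Nlgn1, March1 and Lhfpl3. Sox2ot, a noncoding gene that contains Sox2, was at 4.24, 7.81 and 3.58 TPM in sham, at 1.90, 2.89 and 1.86 in control oligo and at 5.93, 3.94 and 5.45 in knockdown libraries. The knockdown values lay above the control oligo values and within the sham range, with a change of 0.93 ± 0.23 (limma adjusted p = 1). Lrrtm4, a postsynaptic leucine-rich repeat protein, was measured at 4.66, 2.99 and 4.33 TPM in control oligo libraries, against 10.6, 7.63 and 6.27 after knockdown, a change of 0.86 ± 0.26 (limma adjusted p = 1). Nlgn1 changed by 0.64, March1, a ubiquitin ligase, by 0.53 and Lhfpl3 by 0.34. The 5 negative changes with the smallest p belonged to Ank2, Lama2, Erc2, Lrp1b and Nrxn3. Ank2, whose most abundant transcript was 2 kb long, held 164, 210 and 166 TPM in control oligo against 149, 105 and 102 in knockdown libraries (-0.61 ± 0.19), and Lama2, a laminin chain, 4.32 ± 0.379 and 2.50 ± 0.876 (-0.63 ± 0.23). Erc2, an active zone protein, changed by -0.37, Lrp1b by -0.43 and Nrxn3 by -0.33, with adjusted p = 1 for each in limma. For Elmo1 the change was -0.06 ± 0.12.

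One transcript of a long gene passed between knockdown and control oligo, against 0.0501% of all transcripts that were higher and 0.0175% that were lower. It was ENSMUST00000108308 of Nlgn1, which spans 702 kb on chromosome 3. It stood at 13.1, 9.72 and 11.6 TPM in sham, was listed at 0 in all 3 control oligo libraries and stood at 5.30, 4.70 and 4.26 TPM in knockdown libraries (adjusted p = 0.0388). No transcript of a long gene passed when any 1 of the 6 libraries was left out. The 702 kb transcript ENSMUST00000075054, also listed at 0 in the control oligo libraries, gave 7.88, 6.20 and 1.78 TPM in knockdown libraries and did not pass. Another form of 720 kb, ENSMUST00000191835, gave 8.78, 4.86 and 3.95 TPM in control oligo against 0.692, 0.542 and 0.650 in knockdown libraries, the opposite order, and did not pass (adjusted p = 0.269). A listed 0 can be an estimate that failed rather than an absent transcript. Anks1b (ENSMUST00000182284) and Esrrg (ENSMUST00000110939) complete the 5 transcripts with the smallest p. No long gene differed in balance, against 0.00986% of all genes in each direction; Csmd1 came closest, with a change of 0.82 ± 0.13 (adjusted p = 0.746).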

How the data were processed

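The deposited files are 9 StringTie tables of mouse cortex, one a library, with a TPM, an FPKM and a coverage value for each transcript and a coverage value for each exon, per the file headers and attributes. The submitters' processing notes name HISAT2 2.0, StringTie 1.3 and the builds GRCm38 and mm10. The file headers give StringTie 1.3.4d with a merged annotation and no strand option, so overlapping antisense genes are uncertain. Per the labels, control oligo and knockdown libraries were stranded poly(A) libraries read in pairs, and preparation of the sham libraries is not given in the sources used here. The labels speak of cohorts and do not tie samples to mice, so p-values measure the spread between these samples, which may be technical.

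TPM was summed over transcripts per gene ID (131100 transcripts, 52550 IDs, 99.72% found in GENCODE M21). The 6 libraries of a comparison entered one limma-trend fit (limma 3.58.1 in R 4.3.3) of log2(TPM + 1), with a pseudocount that understates changes of low genes, for 17080 genes with TPM of at least 1 in at least 3 libraries. Benjamini-Hochberg adjusted p under 0.05 was called. Transcripts (39894) were fitted likewise. The coverage balance (10142 genes with 4 exons or more, a mean TPM of at least 1 and coverage on both sides in every library) was fitted in limma as a log2 ratio, without the trend and without a pseudocount. The fits were tested on simulated data. Exact permutation tests and plots used Python 3.11.15, scipy 1.17.1 and matplotlib 3.10.9. The long genes and 14 gene lists were chosen with earlier results of these data known. Sntg1 and Immp2l stand in 2 lists. Genes were named by rule: the 10 largest passing changes in each direction whose groups did not overlap, the 5 smallest p where fewer than 5 passed, up to 3 genes of each list, the 5 largest spans and levels, and the neighbours of the threshold. Transcripts of Dmd, Pde4b, Ntrk3, Nlgn1 and Elmo1, and Top2b, were singled out after their values were seen. Some items that the rule names are not reported here. Alternatives covered scaling, unit, pseudocount, filter, covariates, blocking, thresholds and leaving out each library.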

Additional observations from a re-analysis of the deposited data

How the results depend on the processing

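Of 321 alternative values, 247 stayed near the main value, 67 moved and 7 reversed. Compared with the 98 lower and 17 higher long genes of control oligo against sham, median-ratio scaling gave 154 and 4, nuclear coding TPM 160 and 2, FPKM 151 and 4, the span line over all genes 154 and 4, and a mature length line 151 and 6. For knockdown against sham (90 and 19) these gave 148 and 4, 157 and 2, 144 and 4, 154 and 4, and 148 and 5. Both lines also take out the mean shift of each library. Higher and lower transcripts of long genes numbered 16 and 311 after scaling for control oligo against sham, and 11 were higher for knockdown against sham. Shares over all transcripts after scaling, and over all genes with nuclear coding TPM, FPKM or the mature length line, are not given here. Those counts alone therefore do not set the long genes apart, because scaling also raised lower calls over all genes from 12.8% to 29.2% (control oligo against sham). In that comparison the median transcript of the long genes lay 0.93 below that of all transcripts as deposited and 0.96 below after scaling. The distance of the long genes from the median gene was -1.10 and -1.11 in the comparisons with sham. For control oligo it was -1.23 with nuclear coding TPM, -1.28 and -0.69 with pseudocounts of 0.1 and 5, -0.46 without a filter, -1.21 with the span line, -0.35 with the coding span line, -0.98 and -1.23 at spans of at least 400 and 750 kb, and -1.52 and -0.91 from the 5′ and 3′ sides of the transcript. For knockdown against sham it was -1.30 and -0.72 with the pseudocounts, -0.47 without a filter, -1.31 with the span line, -1.25 with the mature length line, -1.23 in coding genes alone, -0.40 with the coding span line, -1.26 at 750 kb and -1.53 from the 5′ side. For knockdown against control oligo it was -0.15 from the 3′ side. The cause of these shifts was not tested.

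The slope on span is not settled in sign. For control oligo against sham it was 0.07 over all genes, 0.17 with a pseudocount of 0.1 and 0.18 without a filter, and reversed to -0.15 at a mean TPM of at least 5, -0.015 after the mature length line and -0.53 in coding genes. For knockdown against sham (0.12) it was 0.067 scaled, 0.039 in FPKM, 0.24 and 0.042 with pseudocounts of 0.1 and 5, 0.22 without a filter, and reversed to -0.11, -0.0041 and -0.54 under the same 3 settings. For knockdown against control oligo (0.05) it reversed to -0.0070 in coding genes. Settings on coding genes alone and on the 2 sides of the transcript were chosen after seeing the data.

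Leaving out each library in turn gave 11 to 19 higher long genes for control oligo against sham, 24 to 48 higher transcripts and 0 to 1 with a higher balance. For knockdown against sham it gave 19 to 60 higher and 133 to 188 lower transcripts and 1 to 2 with a higher balance. For knockdown against control oligo it gave 0 higher transcripts. Replicate numbers were not treated as pairs, and correlations over 3 libraries a group cannot settle whether they are. Same-numbered sham and control oligo libraries had correlations of deviations of -0.03, -0.07 and 0.12, and differently numbered ones -0.11 to 0.14. Control oligo and knockdown shared only numbers 2 and 3, with 0.23 and 0.07, against -0.24 to 0.29 for differently numbered libraries. With the number as a block, 99 long genes were lower and 17 higher for control oligo against sham, 81 and 24 for knockdown against sham and 0 and 0 for knockdown against control oligo, where the distance from the median gene was 0.041 with the block and -0.05 without. With 3 libraries a group and no counts, the depth behind low transcripts is not known.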

Other observations

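Values for Erbb4 differed between libraries of both MCAO groups in a like manner. Its TPM was 6.91, 1.86 and 6.34 in control oligo and 7.37, 1.62 and 4.72 in knockdown libraries, and its balance between the 5′ and 3′ sides of the transcript midpoint was -0.46, 7.10 and -1.03, and -1.12, 5.79 and -0.84. The pair of libraries with the lowest TPM (control oligo 2 and knockdown 3) had nearly all of their coverage of the most abundant Erbb4 transcript on its 5′ side, and in the 3 sham libraries the balance was 0.11 to 0.18.

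Among factors of transcription not described above, Paf1, a subunit of the elongation complex of that name, had 21.5 ± 4.40 TPM (SD, n = 3) in sham and 118 ± 26.1 in control oligo libraries (2.40). Ccnk, the cyclin of the elongation kinase Cdk12, had 3.96 ± 0.875 and 23.6 ± 5.30 (2.30). Aff4, a scaffold of the super elongation complex, was lower, with 58.3 ± 10.5 and 36.7 ± 11.8 (-0.69). Cdc73, another subunit of the Paf1 complex, had 11.3 ± 0.752 and 7.93 ± 2.11 (-0.48) and did not pass in limma as deposited, whereas after scaling it was lower by -1.10. These genes were picked after their values were seen.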
